A study of Mus musculus with 34 samples.

Results

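The dense distal neighbourhoods of late catagen hair follicle stem cells (HFSCs) were examined in peak lists from ATAC-seq, an assay in which a transposase cuts and tags open chromatin. They were the 200 of 24633 fixed windows of 100 kb on the 19 autosomes of the mouse (build mm39) that held the most distal peaks in the 4 lists of CatVII HFSCs with intact Rxra. A peak was distal when its summit lay more than 1 kb from every transcription start of every protein-coding gene. The mean number of distal peaks over those 4 lists chose the windows, so these lists describe the neighbourhoods and test nothing about them. The label calls them enhancer neighbourhoods, but open chromatin is all that was measured, and no enhancer mark or activity was examined.

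The study profiled HFSCs, sorted by FACS from mouse skin or grown in culture, in 34 libraries of 11 groups. In vivo the groups were CatVII Rxra cKO (n = 3), CatVII Rxra WT (n = 4), CatVII wild type (n = 6) and AnaVI wild type (n = 2), where CatVII is late catagen, the regression phase of the hair cycle, and AnaVI is late anagen, the growth phase. In culture, Rxra cKO cells received corpses (n = 3), recombinant AA+LPC+RA (n = 2) or medium (n = 2). Cultured Rxra WT cells received BEL-treated corpses (n = 4), untreated corpses (n = 4), recombinant AA+LPC+RA (n = 2) or medium (n = 2). Rxra encodes a retinoid X receptor. In the cKO, floxed Rxra was deleted by tamoxifen through Sox9-creER, a Cre driven from Sox9 in the outer root sheath and bulge, with a Cre-activated YFP in R26. Tamoxifen was given at the end of anagen in vivo, and 4-hydroxytamoxifen was added to the cultured lines after they had been established on feeder fibroblasts. Where it describes the sorting of cells for ATAC-seq and culture, the study gives Rxra WT as unfloxed Rxra with Sox9-creER and YFP. Its general methods also name floxed mice without Cre as controls. Corpses were apoptotic cells, BEL (bromoenol lactone) inhibits a calcium-independent phospholipase A2, and AA, LPC and RA are arachidonic acid, lysophosphatidylcholine and retinoic acid.

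Names stored inside the lists carry tags that bear on every comparison. CatVII Rxra WT replicate 1 and all 3 CatVII Rxra cKO libraries bore the tag P42, whereas CatVII Rxra WT replicates 2 to 4 bore P37 and took up the numbers that follow those of CatVII wild type, a group tagged P37 too. Rxra cKO replicates 2 and 3 were both stored as m2, one of them NonPhago and the other Phago, so they may share a mouse. The deletion of Rxra was not checked in these lists, since the sources used here do not name the deleted exons. All 4 CatVII Rxra WT lists, which chose the windows, bore the tag NonPhago, as did every medium library. The Phago and NonPhago tags, with repeated numbers, also divided the CatVII wild type libraries and the cultures that received corpses, so n may count fewer mice or cultures than libraries. All p-values therefore measure the spread between these libraries, which may be partly technical. In such bulk material, fewer cells with an open site and a less open site per cell cannot be told apart.

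Genes that define a cell type are often surrounded by clusters of distal regulatory elements, which bind the transcription factors of that lineage and act together on nearby promoters. In HFSCs such clusters have been described around factors of the bulge, the niche where the stem cells rest, and they are known to be remodelled when the cells leave the niche, during wound repair or in culture. AP-1 factors, which respond to stress and growth signals, and SOX, LIM homeodomain, GATA, RUNX, TEAD and KLF factors are among the proteins that bind distal elements in skin epithelium.

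Sequence at the site of a neighbourhood that most libraries shared is shown for 8 neighbourhoods, chosen because they hold the densest peaks or a gene of epithelial identity, adhesion or signalling. Each line gives a summit and 100 bases on each side of it, on the plus strand of mm39. Capitals mark matches, on either strand, to 7 short motifs. AP-1 was searched as TGANTCA, the motif of GATA factors as AGATAA, that of SOX factors as ACAANG, that of LIM homeodomain factors as TAATTA, that of RUNX as TGTGGT, that of TEAD as GGAATG and that of KLF/SP as CCNCCCC. In 239713 windows of the same length across the genome, 6% held the AP-1 letters, 13.2% GATA, 37.9% SOX, 7.16% LIM homeodomain, 13.9% RUNX, 10.8% TEAD and 10.6% KLF/SP, so a single match describes the letters and does not identify a bound site. In the Egfr line an AP-1 and a SOX match overlap by 2 letters.
Socs3, chr11:117848982-117849182: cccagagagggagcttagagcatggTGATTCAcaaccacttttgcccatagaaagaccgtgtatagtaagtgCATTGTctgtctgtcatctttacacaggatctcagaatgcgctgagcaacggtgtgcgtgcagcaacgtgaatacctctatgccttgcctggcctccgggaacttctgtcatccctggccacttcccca
Beside the Cebpb window, chr2:167631653-167631853: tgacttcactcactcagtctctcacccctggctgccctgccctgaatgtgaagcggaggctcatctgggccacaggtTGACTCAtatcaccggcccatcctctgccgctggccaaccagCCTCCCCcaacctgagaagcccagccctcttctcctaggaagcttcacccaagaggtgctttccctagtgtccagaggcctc
Pkp1, chr1:135861510-135861710: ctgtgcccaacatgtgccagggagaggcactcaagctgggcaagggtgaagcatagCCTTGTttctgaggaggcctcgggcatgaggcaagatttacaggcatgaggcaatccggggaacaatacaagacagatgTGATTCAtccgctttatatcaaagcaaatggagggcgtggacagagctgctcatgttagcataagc
Lrig1, chr6:94612387-94612587: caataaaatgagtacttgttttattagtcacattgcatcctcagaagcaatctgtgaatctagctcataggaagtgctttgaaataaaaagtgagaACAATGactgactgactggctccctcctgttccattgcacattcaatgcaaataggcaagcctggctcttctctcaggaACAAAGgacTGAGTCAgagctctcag
Egfr, chr11:16780615-16780815: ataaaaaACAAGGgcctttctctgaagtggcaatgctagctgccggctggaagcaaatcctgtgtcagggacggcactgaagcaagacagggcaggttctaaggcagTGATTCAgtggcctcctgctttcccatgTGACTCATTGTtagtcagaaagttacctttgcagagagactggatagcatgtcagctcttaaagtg
Runx1, chr16:92450791-92450991: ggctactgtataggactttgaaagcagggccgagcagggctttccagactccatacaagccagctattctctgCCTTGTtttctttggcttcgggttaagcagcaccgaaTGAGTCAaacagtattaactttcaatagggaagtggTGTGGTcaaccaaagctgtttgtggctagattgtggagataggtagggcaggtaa
Trp63, chr16:25663324-25663524: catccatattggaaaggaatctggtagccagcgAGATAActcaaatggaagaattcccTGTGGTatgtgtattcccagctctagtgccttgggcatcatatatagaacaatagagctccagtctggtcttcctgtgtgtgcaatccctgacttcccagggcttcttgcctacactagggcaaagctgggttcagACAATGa
Cdh1, chr8:107346187-107346387: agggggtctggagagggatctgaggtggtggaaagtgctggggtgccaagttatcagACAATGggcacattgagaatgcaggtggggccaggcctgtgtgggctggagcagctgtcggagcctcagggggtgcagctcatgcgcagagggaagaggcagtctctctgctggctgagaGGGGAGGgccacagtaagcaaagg

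The Socs3 site, 10489 bp from the start of Socs3, a feedback inhibitor of cytokine signalling, was called in 27 of the 34 libraries and held an AP-1 and a SOX match. The site beside the Cebpb window, in the third neighbourhood, was the most widely shared of the 8, with a peak in 32 libraries, and held AP-1 and KLF/SP letters. The Egfr site, in an intron of the epidermal growth factor receptor gene, had a peak in 30 libraries, which were all but the 4 kept in medium. The Pkp1 site had a peak in 28 libraries, and the intronic Lrig1 and Cdh1 sites in 27 each. The intronic Runx1 and Trp63 sites each had a peak in 24, and both held the RUNX letters, but only the Runx1 site held the AP-1 letters and only the Trp63 site the GATA letters.

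The 200 neighbourhoods were 0.812% of the windows. Their mean distal count over the 4 CatVII Rxra WT lists ran from 13.5 to 42.5 around a median of 14.75, whereas all windows averaged 2.10 peaks and 31.2% of them had none. Of the members, 25 stood at the lowest mean of 13.5, and 20 windows just outside stood at 13.25. Apart from the first, with 42.5, no neighbourhood exceeded 21. The windows formed 180 separate neighbourhoods, of which 162 were single and 18 were runs of at most 3. Chromosome 16 held 20 and chromosome 12 held 17. One run of 3 windows, chr1:135600001-135900000, carried Pkp1 with Lad1, which encodes a hemidesmosomal anchoring filament protein, and Csrp1. The run at chr17:84200001-84500000 carried Zfp36l2, an RNA-decay factor, and Thada.

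The densest members held genes of epithelial signalling, structure and cell fate (values are mean distal peaks in the 4 lists that chose them). Socs3 shared the second window, chr11:117800001-117900000, with Pgs1 at 21 peaks. The third, chr2:167600001-167700000, contained no gene start and lay beside the window of Cebpb, a leucine zipper factor of epidermal differentiation. Among the first 15 were also the windows of Ltbp3, a TGF-beta binding protein, of Casz1, a zinc finger factor, of Kank1, an adhesion and cytoskeleton protein, of Irf2bpl, of App, of Ripk4, a kinase needed for epidermal differentiation, and of the keratin gene Krt80. The windows of Nmur1 and Aff1, a window near Lsm3 and one within Rad51b completed this group, with 2 windows of repeated sequence described later.

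Starts of 214 protein-coding genes lay in the neighbourhoods, which is 1.04% of the 20621 autosomal ones. The windows averaged 1.07 starts, against 1.03 in all windows, and 29.5% of them held no start, against 49.1% of all windows. HFSC transcription factors had 4 of 13 starts inside, those of Nfatc1, a brake on stem cell cycling, Nfib, which maintains the stem cell niche, Runx1 and Vdr. Keratin and adhesion genes had 5 of 22 inside, which were the stress keratins Krt16 and Krt17, the desmosomal genes Dsp and Pkp1, and Cdh1, encoding E-cadherin. AP-1 and stress factors had 2 of 12 (Fosb and Cebpb), bulge surface and niche genes 1 of 15 (Lrig1), epidermal transcription factors 1 of 16 (Trp63), signalling genes 1 of 19 (Egfr) and constitutive genes 1 of 11 (Rplp0).

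Among genes of corpse clearance and retinoid signalling, 1 start lay in a neighbourhood. It was that of Abca1, a lipid exporter, 1 of 25 apoptotic cell clearance genes (4%, against 1.04% of all genes), and none lay inside among 19 retinoid genes, 10 Hippo genes or 9 autosomal lysosome genes. Within 100 kb of a neighbourhood there were 6 of 13 HFSC transcription factors (46.2%), with Sox9 at 73009 bp and Hopx at 36979 bp added, and 8 of 22 keratin and adhesion genes (36.4%), with Krt14 at 1511 bp. By comparison 3.27% of all autosomal genes were that near. Retinoid genes then counted 2 of 19, which were Rara at 48763 bp and Crabp1 at 71171 bp, and clearance genes 2 of 25, with Scarb1 at 61223 bp added. Fibroblast, melanocyte and immune markers and genes of unrelated tissues had none within 100 kb, whereas the endothelial marker Erg lay 12549 bp from the window that also neighbours Ets2. These counts describe lists and carry no test.

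**Figure D1:**
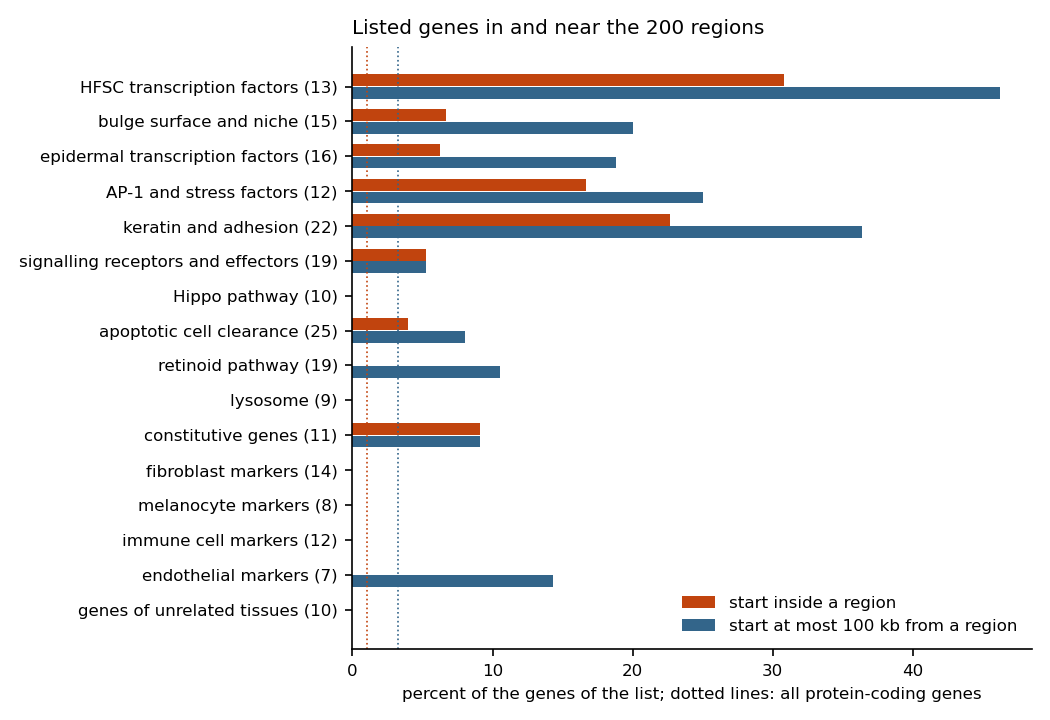
Percent of the genes of each list (y axis) whose transcription start lay inside one of the 200 neighbourhoods or within 100 kb of one (x axis, percent of genes), with dotted lines at the same percentages of all autosomal protein-coding genes. HFSC transcription factors stood at 30.8% inside and 46.2% within 100 kb, against 1.04% and 3.27% of all genes.

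Density in the neighbourhoods was elevated in every group, but unequally. Distal peaks per window in the neighbourhoods, divided by those in the other windows, averaged 6.26 in CatVII Rxra cKO and 7.97 in the CatVII Rxra WT lists, where the rule set it in part. The ratio was 8.07 in CatVII wild type (5.26 to 11.1 over 6 libraries) and 7.22 in AnaVI wild type (6.55 and 7.89), so libraries that took no part in the choice reached the same range. In culture it was 4.74 under BEL-treated corpses, 4.52 under corpses, 5.24 under AA+LPC+RA and 2.64 in medium for Rxra WT cells, and 3.81 under corpses, 4.8 under AA+LPC+RA and 3.95 in medium for Rxra cKO cells. Absolute counts followed the number of called peaks, which ran from 4144 to 129876 per library, and a neighbourhood averaged 12.4 called peaks under corpses but 0.403 in medium for Rxra WT cells. In the 4 medium libraries 130 to 163 neighbourhoods had no peak at all.

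Each group's own 200 densest windows overlapped the neighbourhoods to different extents, as a share of 200 in each case. CatVII Rxra cKO shared 122 (61%), CatVII wild type 80 (40%) and AnaVI wild type 81 (40.5%). The cultured groups other than medium shared 68 to 73 (34 to 36.5%), and the medium groups 4 and 7. Many windows tied at the edge of these sets in the shallow groups, 688 of them in Rxra cKO medium.

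Named neighbourhoods are given in called peaks per group (means over libraries, with no correction for depth). The Socs3 window chr11:117800001-117900000 averaged 15 in CatVII Rxra cKO, 21 in CatVII Rxra WT, 5.83 in CatVII wild type and 6.5 in AnaVI wild type. In Rxra WT culture it averaged 17.5 under BEL-treated corpses, 17.8 under corpses, 8.50 under AA+LPC+RA and 0.5 in medium, and in Rxra cKO culture 18.3, 14.0 and 0.5 under corpses, AA+LPC+RA and medium. The Nfatc1 window chr18:80600001-80700000 had fewer peaks in these deep cultures than in the deep CatVII groups, with 11.7 in CatVII Rxra cKO, 16.5 in CatVII Rxra WT, 8.50 under corpses in Rxra WT culture and 7.67 under corpses in Rxra cKO culture. The Abca1 window chr4:53100001-53200000 went further in that direction, with 11.0 in CatVII Rxra cKO, 13.8 in CatVII Rxra WT, 4.25 under corpses in Rxra WT culture and 6 in Rxra cKO culture. The Lrig1 window chr6:94600001-94700000, around a gene that restrains receptor tyrosine kinases, was as dense in Rxra WT culture under corpses (16.8) as in CatVII Rxra WT (16). Depth differed between these groups, so lists of equal length are used from here on.

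Within each comparison every library's distal peaks were ranked by the deposited -log10 p and cut to the number in the shortest list. The share of such a list that fell in the neighbourhoods, in percent, was compared by a two-sided exact permutation test of the group labels, with Benjamini-Hochberg adjustment over 6 comparisons. None of the 6 passed an adjusted 0.05, and in 4 of them the smallest p that so few libraries allow was 0.0571 to 0.2. Counts per window were fitted with limma on log2(peaks + 0.5) over all windows with a mean of at least 2 peaks, and a window was called at an adjusted p under 0.05.

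**Figure D2:**
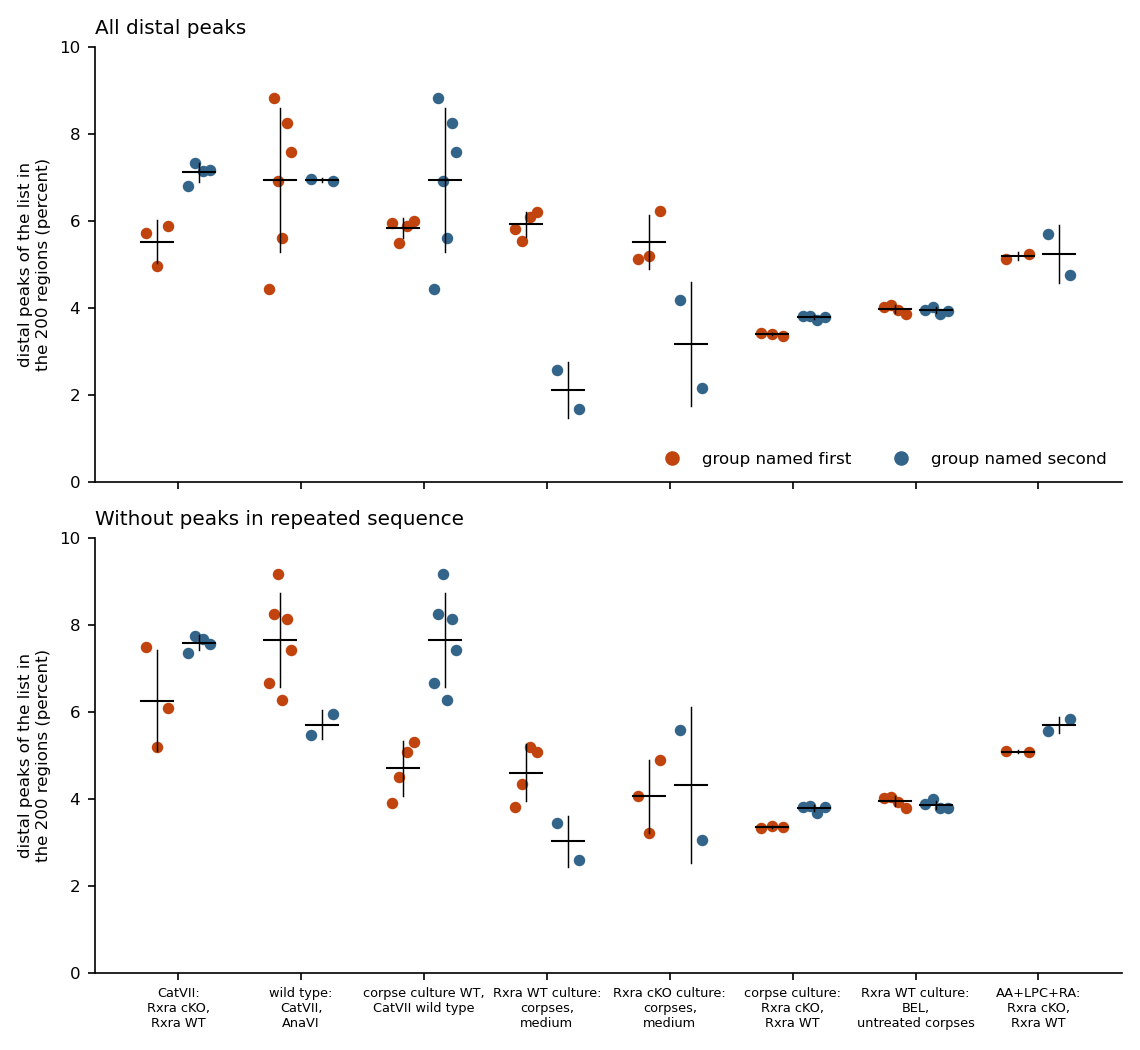
Percent of each library's distal peaks, in lists cut to equal length, that lay in the 200 neighbourhoods (y axis), for each comparison (x axis). Points are libraries, horizontal bars group means and vertical lines 1 SD on each side, and lists differ in length between comparisons, so levels compare only within one. Cultured Rxra cKO libraries stood between 3.36 and 3.42% and Rxra WT libraries between 3.72 and 3.82%.

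Repeated sequence, defined as summits whose surrounding 25-base words occurred a median of at least 10 times in the genome, moved with several of these shares. Its part of the distal peaks outside the neighbourhoods was 9.35 to 27.4% in CatVII Rxra cKO, 1.70 to 11.5% in CatVII Rxra WT, 10.3 to 39.2% in CatVII wild type, 4.11 and 9.55% in AnaVI wild type, 1.73 to 5% under corpses and 37.9 to 59.1% in medium. Inside, 198 of the 200 neighbourhoods had under 10% of their peaks there. The exceptions were the densest, chr9:3000001-3100000, at 99.4%, 235110 bp from the nearest gene start, and the Rhou window chr8:124300001-124400000, at 81.0% with a median GC content of 72.1%. Each comparison of shares below is therefore given with and without peaks in repeated sequence at its main list length, an alternative chosen after the data were seen. Some values in shorter lists are given only with these peaks.

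Loss of Rxra in late catagen went with sparser neighbourhoods in the top 28245 peaks, given as a description because the Rxra WT lists chose the members. The share was 5.72, 4.95 and 5.88% in the Rxra cKO libraries, against 6.81, 7.32, 7.16 and 7.18% in the Rxra WT libraries, with no overlap. Each neighbourhood averaged 7.79 peaks in Rxra cKO and 10.05 in Rxra WT. Every Rxra cKO library lay below every Rxra WT library in 48 neighbourhoods and above in 1, the Rplp0 window, against 7.45% of 5246 windows below and 1.03% above. The mean was lower in Rxra cKO in 185 neighbourhoods and higher in 15, against 62.9% and 33.6% of the 5246 windows, and lower in 155 and higher in 43 without repeated sequence. The choice of windows by high Rxra WT counts favours this direction.

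The separation between these genotypes was seen again when a list was left out of the choice, but not without repeated sequence or in shorter lists. When the 200 windows were chosen from 3 of the 4 Rxra WT lists, the highest Rxra cKO library held 5.86 to 5.99%, against 6.47 to 7.32% in the list left out, which lay above it each time. These choices still rested on Rxra WT lists and kept 168 to 183 of the members. They therefore favour this direction too and are no independent check. In the top 3773 peaks the share was 7.05 to 9.17% in Rxra cKO and 8.98 to 10.05% in Rxra WT, and in the top 2229 it was 8.08 to 9.38% and 8.7 to 10.6% in the same order of groups, with overlap at both lengths. Without peaks in repeated sequence the shares were 7.49, 5.19 and 6.10% in Rxra cKO, against 7.36, 7.75, 7.67 and 7.57% in Rxra WT, so the groups overlapped, and the count of neighbourhoods with every Rxra cKO library lower was 24 of 198, against 4.54% of 4029 windows, and 1 was all higher, against 1.69%. Within the tag P42 the share without repeated sequence was 5.19 to 7.49% in Rxra cKO and 7.36% in the single Rxra WT library. The part of the P37 and P42 tags in the difference was not tested.

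Several neighbourhoods of epithelial genes had low counts in single Rxra cKO libraries. The Ripk4 window chr16:97500001-97600000 had 9, 4 and 5 peaks in Rxra cKO, against 12, 14, 13 and 12 in Rxra WT. The Cdh1 window chr8:107300001-107400000 had 11, 3 and 6 in Rxra cKO, against 12, 11, 12 and 12 in Rxra WT, and the Dsp window chr13:38300001-38400000 had 12, 5 and 8, against 13, 11, 12 and 11. The Ripk4 libraries did not overlap, whereas those of Dsp did, and Rxra cKO replicate 2 was the lowest at all 3.

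Transcription factor windows divided in the same way. The Trp63 window chr16:25600001-25700000, around the master factor of stratified epithelium, had 4, 1 and 4 peaks in Rxra cKO, against 5, 9, 5 and 5 in Rxra WT. The Nfatc1 window chr18:80600001-80700000 had 11, 4 and 7, against 12, 12, 10 and 8. Trp63 libraries were all lower in Rxra cKO, as were those of the adjoining window, whereas Nfatc1 libraries overlapped. The Runx1 window chr16:92400001-92500000 (6, 10 and 10 in Rxra cKO, against 8, 10, 10 and 13 in Rxra WT) and the Nfib window chr4:82400001-82500000 (4, 8 and 7, against 7, 6, 7 and 9) overlapped as well.

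Other dense windows held nearly the same counts in both genotypes. The Casz1 window chr4:148900001-149000000 had 10, 7 and 8 peaks in Rxra cKO, against 9, 10, 9 and 8 in Rxra WT. The Abca1 window chr4:53100001-53200000 had 8, 7 and 7, against 7, 6, 9 and 8. The Rplp0 window chr5:115600001-115700000, around a ribosomal protein gene, had 10, 10 and 12 in Rxra cKO, against 9 in each Rxra WT library, so every Rxra cKO library lay above.

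**Figure D3:**
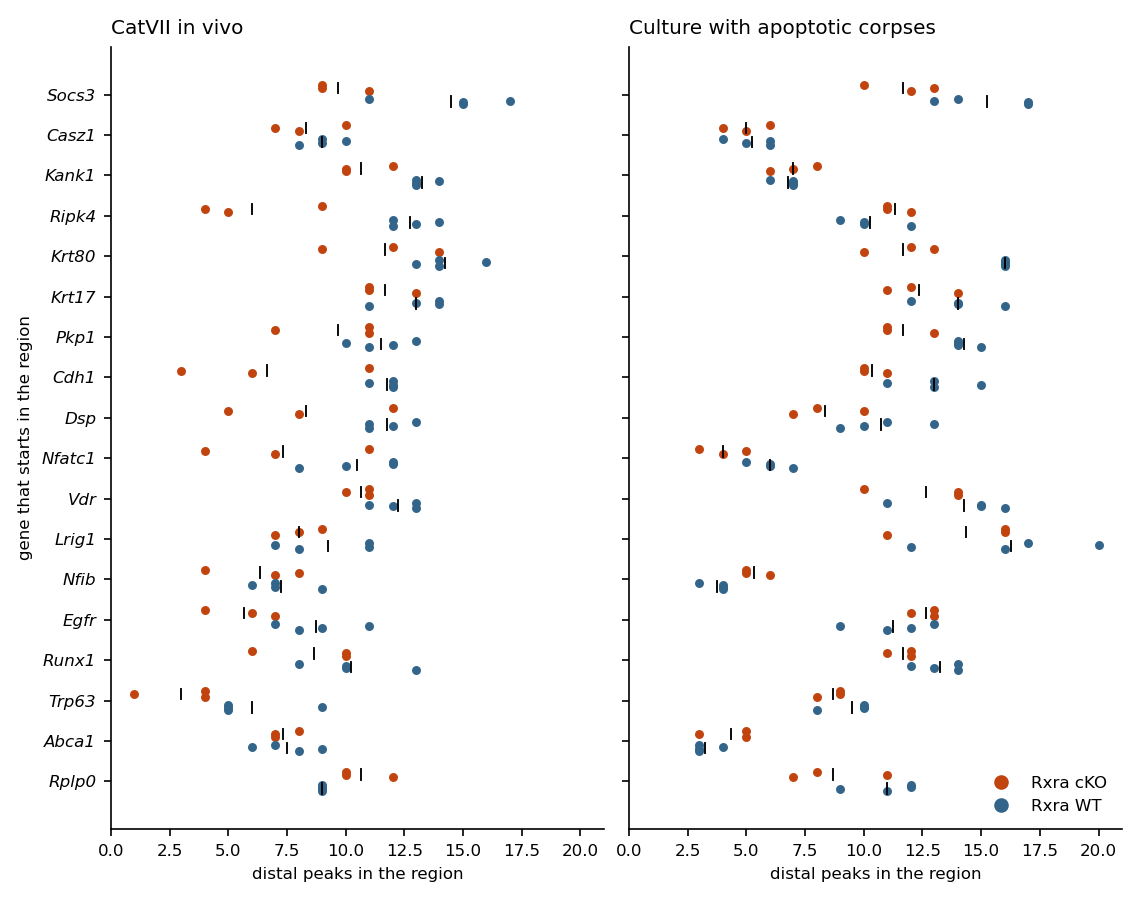
Distal peaks per library in lists of equal length (x axis, peaks) at named neighbourhoods (y axis), in CatVII Rxra cKO and Rxra WT and in cultures under corpses. Points are libraries and ticks are group means. At the Ripk4 window the CatVII Rxra cKO libraries had 4 to 9 peaks and the Rxra WT libraries 12 to 14, whereas at the Casz1 window both ranges overlapped.

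Cultured HFSCs under corpses, none of which chose the members, gave a comparison of genotypes in other lists. The windows were still chosen by their density in Rxra WT cells, which may favour Rxra WT here. The share in the top 54724 peaks was 3.42, 3.40 and 3.36% in Rxra cKO (mean 3.40 ± 0.03, SD), against 3.81, 3.82, 3.72 and 3.79% in Rxra WT (mean 3.79 ± 0.04, SD). Every Rxra cKO library lay below every Rxra WT library, at an exact permutation p of 0.0571, the smallest that 3 against 4 libraries allow, and an adjusted p of 0.343. Without repeated sequence the means were 3.35 ± 0.02% in Rxra cKO and 3.79 ± 0.07% in Rxra WT, again with no overlap. Ranking by fold brought the groups into overlap (exact p = 0.171). NonPhago libraries had 3.42 and 3.40% in Rxra cKO and 3.81 and 3.82% in Rxra WT, and Phago libraries 3.36% in Rxra cKO and 3.72 and 3.79% in Rxra WT, so the order held within each tag.

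Across the cultured neighbourhoods the counts were a little lower in Rxra cKO, with 9.29 peaks per neighbourhood in Rxra cKO and 10.4 in Rxra WT. Of 199 with a mean of at least 2, every Rxra cKO library was lower in 27 and higher in 3, against 5.65% and 4.2% of 10336 windows. Without repeated sequence the counts were 32 lower and 4 higher of 199, against 5.93% and 4.15% of 9950 windows. The mean was lower in 150 of the 200 and higher in 48, against 54.9% and 40.2% of the 10336 windows. The median log2 difference of the fitted neighbourhoods was -0.15, against -0.05 over all fitted windows. At an unadjusted p under 0.05 limma had 53 neighbourhoods lower and 6 higher, against 12.5% and 7.44% of all fitted windows. The shortest peak, which follows the fragment length of a library, was 75 to 81 bp in Rxra cKO and 60 to 104 bp in Rxra WT, and its part in the counts was not tested.

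Only 3 neighbourhoods passed the adjusted threshold in limma, 2 lower (0.697% of all fitted windows) and 1 higher (0.513%), and each call was fragile. The Lrrc74a window chr12:86800001-86900000, beside the Irf2bpl window, had 9, 9 and 10 peaks in Rxra cKO, against 16, 15, 16 and 13 in Rxra WT, a log2 difference of -0.65 ± 0.09 (SE; limma adjusted p = 0.0314). The window of Ttc7 and Stpg4, chr17:87600001-87700000, had 3 in each Rxra cKO library and 4 in each Rxra WT library (log2 difference -0.36, limma adjusted p = 0.0466). The window of Boc, a co-receptor of hedgehog signalling, chr16:44300001-44400000, had 4, 6 and 5 in Rxra cKO, against 1, 2, 1 and 1 in Rxra WT (log2 difference 1.67 ± 0.23, SE; limma adjusted p = 0.0364). The Lrrc74a call was lost without Rxra cKO replicate 1, 2 or 3 or Rxra WT replicate 2 or 3 (adjusted p 0.0556 to 0.0951), the Ttc7 call without Rxra cKO replicate 1 or 3 or Rxra WT replicate 1, 3 or 4 (0.0568 to 0.303), and the Boc call without Rxra cKO replicate 1, 2 or 3 or Rxra WT replicate 1, 3 or 4 (0.068 to 0.0952).

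Uncalled windows of interest moved by small amounts. The Krt80 window chr15:101200001-101300000 had 12, 13 and 10 peaks in Rxra cKO, against 16 in every Rxra WT library, and the Pkp1 window chr1:135800001-135900000 had 11, 11 and 13, against 14, 14, 14 and 15. Neither overlapped. The Nfib window chr4:82400001-82500000 went the other way, with 5, 5 and 6 in Rxra cKO and 3, 4, 4 and 4 in Rxra WT. At the Egfr window chr11:16700001-16800000 (13, 12 and 13 in Rxra cKO, against 13, 9, 12 and 11 in Rxra WT) and the Trp63 window chr16:25600001-25700000 (9, 9 and 8, against 10, 10, 10 and 8) the libraries overlapped.

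**Figure D4:**
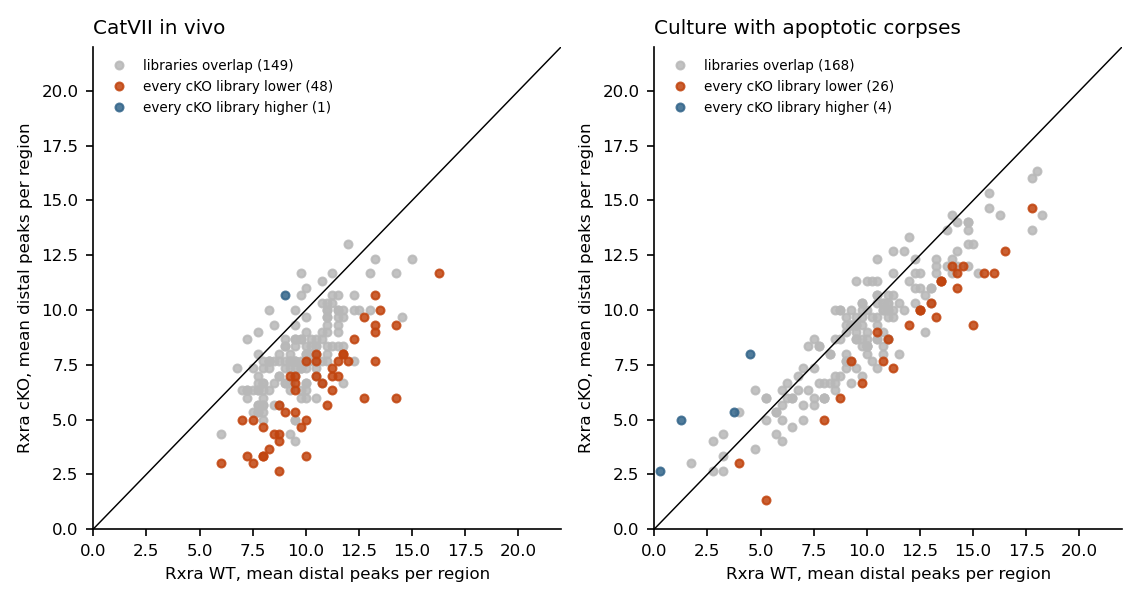
Mean distal peaks per neighbourhood in Rxra WT (x axis) and Rxra cKO (y axis) in lists of equal length, for CatVII HFSCs and for cultures under corpses, without the 2 windows of repeated sequence. Each point is a neighbourhood, coloured by whether all Rxra cKO libraries lay below or above all Rxra WT libraries (with no filter on the mean, so legend counts can differ from those in the text), and most points lie under the line of equality, with 185 of all 200 lower in CatVII Rxra cKO (155 without repeated sequence) and 150 of 200 in cultured Rxra cKO.

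The same neighbourhood was lower in all Rxra cKO libraries of both comparisons in 5 cases, which are 5 of the 48 in late catagen and 5 of the 27 in culture, and no neighbourhood went all lower in one and all higher in the other. Of the 48, 10.4% were thus lower in culture, against 13.5% of all 200, so the overlap was no larger than the separate counts give. Among all 4764 windows tested in both, 373 were all lower in CatVII. Of these 9.38% were all lower in culture, against 7.2% of the 4764, so the 10.4% was near the share of all windows. The 5 neighbourhoods were named after their values were seen and are a description. The window of Cd9, a tetraspanin of the cell surface, averaged 4.67 peaks in CatVII Rxra cKO against 9.75 in CatVII Rxra WT, and 10 against 12.5 in cultured Rxra cKO and Rxra WT. That of Tiam1, which activates the GTPase Rac, averaged 4.33 against 8.75 in late catagen and 5 against 8 in culture, again with Rxra cKO given before Rxra WT. The others held Acp3, lay near Haao at 44609 bp, or lay 104480 bp from Fst, which encodes the activin antagonist follistatin.

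Under BEL-treated corpses the share in the neighbourhoods depended on the length of the lists. In the top 47696 peaks the share was 3.98 ± 0.10% under BEL-treated corpses and 3.94 ± 0.07% under untreated corpses (SD, n = 4 each; exact permutation p = 0.571). Without repeated sequence it was 3.79 to 4.05% under BEL-treated and 3.79 to 3.98% under untreated corpses in 46555 peaks, with overlap. In the shorter lists of 23848 peaks every BEL library lay higher, with 4.86 ± 0.10% under BEL-treated and 4.58 ± 0.12% under untreated corpses (exact permutation p = 0.0286, adjusted p = 0.171). The gap widened in the lists cut for all groups, with no overlap and no test. It was 6.7% under BEL-treated and 5.83% under untreated corpses in 3773 peaks, 7.62 and 6.02% in 2229 peaks, and 7.43 and 4.58% in 1184 peaks without repeated sequence, BEL-treated given before untreated. Of 197 neighbourhoods, every BEL library was lower in 8 and higher in 9, against 2.29% and 2.86% of 9170 windows. Without repeated sequence the counts were 6 lower and 10 higher of 196, against 2.19% and 2.74% of 9021 windows. The shortest peak was 144 to 145 bp under BEL-treated and 60 to 104 bp under untreated corpses. Its part in these values was not tested.

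By limma, 2 of 197 neighbourhoods were called higher under BEL-treated corpses (0.752% of all fitted windows) and 1 lower (0.949%). At an unadjusted limma p under 0.05 there were 24 higher and 22 lower (9.73% and 9.60% of windows). These numbers are near the share of all windows. The window of Epha2, an ephrin receptor of epithelial cells, chr4:141000001-141100000, had 13, 15, 15 and 13 peaks under BEL-treated corpses, against 7 in each library under untreated corpses (log2 difference 0.95 ± 0.06, SE; limma adjusted p = 0.000484). It kept this call without any one of the 8 libraries (adjusted p 0.00121 to 0.0054) but lost it when peaks were ranked by fold or not cut to equal lists. The window near Ets2, an ETS factor, chr16:95400001-95500000, had 9 in each BEL library, against 11, 12, 11 and 11 (log2 difference -0.31, limma adjusted p = 0.0107, but 0.1 without BEL replicate 2).

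The third call fell on repeated sequence. The Rhou window chr8:124300001-124400000 had 30, 32, 30 and 31 peaks under BEL-treated corpses, against 17, 13, 19 and 21 under untreated corpses (log2 difference 0.82 ± 0.14, SE; limma adjusted p = 0.0377). Leaving out any BEL library, or untreated replicate 1, lost the call (adjusted p 0.081 to 0.307). The chr9:3000001-3100000 window had 23, 25, 25 and 25 under BEL-treated corpses, against 73, 50, 33 and 50, the opposite direction, and was not called. Among uncalled windows, Socs3 at chr11:117800001-117900000 had 17, 17, 16 and 17 under BEL-treated corpses, against 14, 13, 15 and 14, without overlap, whereas Casz1 at chr4:148900001-149000000, with 6, 6, 4 and 5 against 3, 3, 4 and 4, overlapped at 4 peaks.

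Corpses went with a larger share in the neighbourhoods than medium in Rxra WT cells, in lists of 3299 peaks. It was 5.82, 5.55, 6.09 and 6.21% under corpses, against 2.58 and 1.67% in medium, with no overlap (exact permutation p = 0.133, the smallest possible). Without repeated sequence it was 4.60% under corpses and 3.02% in medium, still without overlap. By tag the corpse libraries then averaged 4.07% (NonPhago) and 5.13% (Phago), whereas all medium libraries were NonPhago. The part of the tag was not tested. In Rxra cKO cells the share was 5.11, 5.20 and 6.24% under corpses, against 4.17 and 2.15% in medium (exact permutation p = 0.2, the smallest possible), but 4.05 and 4.31% without repeated sequence, a reversal. Medium lists were the shortest of all, and no window was fitted there. Among genes outside the neighbourhoods 5.41 to 16.6% had a promoter peak in medium libraries, against 54.1 to 64.7% under corpses. The part of library quality in these shares was not tested.

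Late catagen and anagen wild type cells had nearly equal mean shares until repeated sequence was left out. In lists of 3773 peaks the share was 4.43, 8.83, 6.92, 5.62, 8.24 and 7.58% in CatVII (mean 6.93 ± 1.66, SD), against 6.97 and 6.92% in AnaVI, within the CatVII range (exact permutation p = 1). Without repeated sequence every CatVII library lay above both AnaVI libraries, at 7.65 ± 1.08% in CatVII and 5.70 ± 0.34% in AnaVI (SD, n = 6 and 2; exact permutation p = 0.0714, the smallest possible). The choice of windows from late catagen lists favours this direction. Only 28 neighbourhoods were dense enough to fit in these short lists, of 104 windows.

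Within those, 4 of the 28 neighbourhoods were higher in CatVII (18.3% of fitted windows) and 1 was lower (2.88%), numbers near the share of all windows. The window of Mbnl2, a splicing regulator, chr14:120500001-120600000, had 4, 5, 4, 6, 7 and 7 peaks in CatVII, against 1 and 0 in AnaVI (log2 difference 2.76 ± 0.38, SE; limma adjusted p = 0.00012). The Lrrc74a window chr12:86800001-86900000 had 4, 3, 6, 3, 4 and 3, against 1 and 1 (log2 difference 1.49 ± 0.33, SE; limma adjusted p = 0.00333). The window of Dennd4c, a regulator of Rab GTPases, chr4:86600001-86700000, had 1, 4, 4, 2, 4 and 3 in CatVII and none in AnaVI (limma adjusted p = 0.00333). The same held at the window of Bach1, a heme-responsive repressor, chr16:87400001-87500000 (1, 3, 3, 2, 3 and 5, against none; limma adjusted p = 0.00525), and no fold is given against libraries without a peak.

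The repeated chr9:3000001-3100000 window was the one called lower, with 25 to 30 peaks in CatVII, against 64 and 39 in AnaVI (limma adjusted p = 0.00333). Mbnl2 and this window kept their calls without any one library, though the log2 difference here moved to -0.48 without AnaVI replicate 1, against -0.84 with it. The Lrrc74a difference was 0.81 without CatVII replicate 3. The Lrrc74a and Bach1 calls were lost without CatVII replicate 3 (adjusted p 0.114 and 0.237), which has the shortest list and whose absence lengthens all lists, and without AnaVI replicate 1 (0.0537 and 0.0504). The Dennd4c call was lost without AnaVI replicate 1 (adjusted p = 0.0504).

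Culture and late catagen in vivo were compared among the 3773 strongest peaks, the length of the shortest CatVII list. The share was 5.83 ± 0.23% in Rxra WT cultures under corpses (n = 4) and 6.93 ± 1.66% in CatVII wild type (n = 6; SD; exact permutation p = 0.238). Without repeated sequence it was 4.70 ± 0.62% in culture and 7.65 ± 1.08% in CatVII, with no overlap (exact permutation p = 0.00952, adjusted p = 0.0571). The windows were chosen from late catagen lists in vivo, which favours CatVII here. Of 26 neighbourhoods fitted among 85 windows, 7 were lower in culture (28.2% of windows) and 3 higher (10.6%), numbers near the share of all windows. Genotype, hair cycle stage, culture and tags differ together here and cannot be told apart.

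The Mbnl2 window chr14:120500001-120600000 had 0, 0, 0 and 1 peaks in culture, against 4, 5, 4, 6, 7 and 7 in CatVII (log2 difference -3.16 ± 0.34, SE; limma adjusted p = 1.92e-05). The Lrrc74a window chr12:86800001-86900000 had 1 in each culture library, against 3 to 6 (log2 difference -1.49, limma adjusted p = 0.000212). A window near Chd2, which encodes a chromatin remodeller, chr7:73200001-73300000, had 1, 1, 1 and 2 in culture, against 3, 4, 6, 4, 5 and 4 (log2 difference -1.48, limma adjusted p = 0.000212). The window of Mreg and Pecr and a window near Myc were called lower too, at log2 differences of -1.49 and -1.27, as were those of Dlgap1 (-1.06) and Adgrg7 (-0.90), the last pair named after their values were seen. Without CatVII replicate 3, whose absence lengthens all lists, the differences shrank to -0.73 at Mreg, -0.36 near Myc, -0.48 at Dlgap1 and -0.65 near Chd2. With all called peaks, where culture lists are much longer than CatVII lists, all 7 differences turned positive, from 1.13 at Mbnl2 to 1.82 at Mreg, so these calls hold for the strongest peaks only. The CatVII libraries alone had peaks at the Nfatc1 window chr18:80600001-80700000, with 0 in each culture library, against 1, 3, 2, 2, 2 and 2, but its mean was below the filter of the fit.

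Higher in culture were the window of Larp4 and Dip2b, chr15:99900001-100000000, with 3, 5, 5 and 6 peaks against 0, 2, 0, 1, 2 and 0 in CatVII (log2 difference 2.32 ± 0.56, SE; limma adjusted p = 0.00539), the window of Vps37b and Hip1r, chr5:124100001-124200000 (log2 difference 0.86), and the window within Prkch, a protein kinase C of differentiating keratinocytes, chr12:73800001-73900000, with 3, 4, 3 and 3 against 2, 2, 2, 2, 1 and 2 (log2 difference 0.70). The calls of Mbnl2, Lrrc74a and Larp4 held without any one library. CatVII replicate 3 decided those near Chd2 (adjusted p 0.138 without it), near Myc (0.0838), of Dlgap1 (0.299) and, with culture replicates 3 (0.0918) and 4 (0.0722), of Vps37b (0.0549). The Prkch call was lost without culture replicate 2 (0.0943), the call of Adgrg7 without culture replicate 2 (0.0594) or 3 (0.0517), and that of Mreg without culture replicate 2 (0.142) or 4 (0.132) or CatVII replicate 1 (0.077), 4 (0.114) or 6 (0.105).

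Under AA+LPC+RA the share in lists of 6970 peaks was 5.12 and 5.25% in Rxra cKO, against 5.71 and 4.76% in Rxra WT, with overlap. Without repeated sequence it was 5.11 and 5.07% in Rxra cKO, against 5.57 and 5.83% in Rxra WT. No test was made on 2 libraries a group, and all Rxra cKO libraries bore the tag NonPhago and all Rxra WT libraries Phago.

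Sites rather than counts gave a further view of the neighbourhoods, through a measure added after the data were seen. Merged over the 4 CatVII Rxra WT lists and outside repeated sequence, the neighbourhoods held 4354 sites, of which 33.1% were called in all 4 lists, against 20.6% of 80812 sites elsewhere, a description of the choice, since these lists chose the windows. A neighbourhood had a median of 7 such sites and at most 13. Of the 1441 sites called in all 4 lists, cultured Rxra cKO libraries under corpses kept 57.3 ± 0.56% and Rxra WT libraries 62.6 ± 1.66% (SD, n = 3 and 4; exact permutation p = 0.0571, the smallest possible). Outside the neighbourhoods they kept 57.3% in Rxra cKO and 60.6% in Rxra WT. The ratio of inside to outside was 0.999 in Rxra cKO and 1.03 in Rxra WT, without overlap. Windows and sites were both defined by Rxra WT lists, which may favour the Rxra WT cultures in these values.

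BEL-treated corpses went with more of these sites kept, 65.3 ± 1.24% under BEL-treated and 59.8 ± 1.51% under untreated corpses (SD, n = 4 each; exact permutation p = 0.0286, adjusted p = 0.0857), and outside the neighbourhoods with 62.3% and 58.4%, and the ratio of inside to outside overlapped. Sites and windows came from late catagen lists in vivo, which favoured CatVII wild type over culture and AnaVI in advance. Cultures under corpses kept 6.35 ± 1.17% and CatVII wild type 12.4 ± 1.57% in the short lists of 2507 peaks (SD, n = 4 and 6; exact permutation p = 0.00952, adjusted p = 0.0571). Outside the neighbourhoods they kept 7.46% in culture and 12.0% in CatVII, again without overlap, and the ratio of inside to outside, 0.847 in culture and 1.04 in CatVII, overlapped. CatVII wild type, at 12.4%, lay above AnaVI wild type at 9.30 ± 0.69% with no overlap (exact permutation p = 0.0714), whereas outside the neighbourhoods the 12.0% in CatVII and 11.6% in AnaVI overlapped. The ratio of inside to outside overlapped between CatVII, at 1.04, and AnaVI, at 0.806 (exact permutation p = 0.143, adjusted p = 0.214). In the Rxra WT cultures 4.22% were kept under corpses and 1.94% in medium, without overlap (exact permutation p = 0.133, the smallest possible), and 5.18 and 2.06% outside the neighbourhoods. In the Rxra cKO cultures they overlapped, at 2.52% under corpses and 2.29% in medium.

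**Figure D5:**
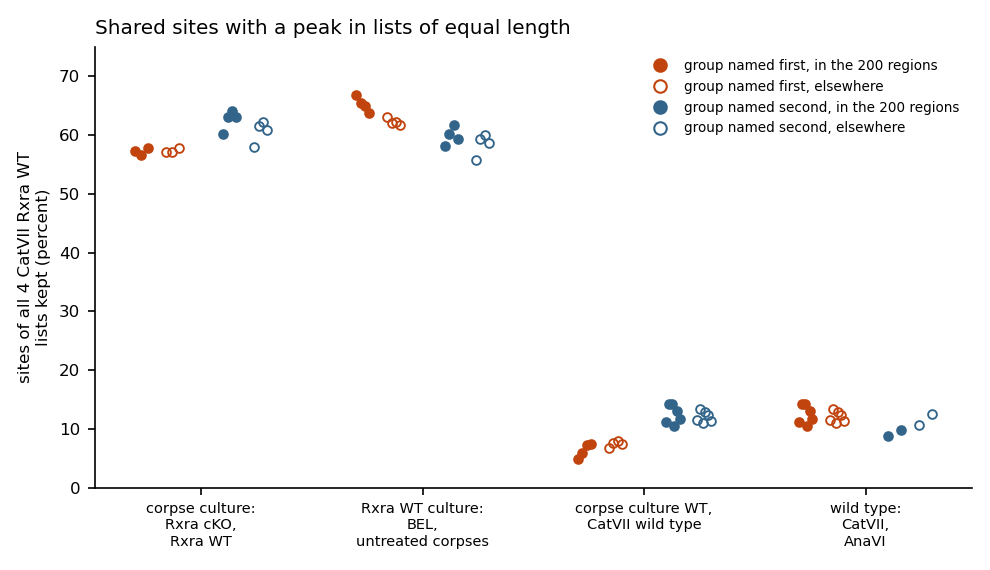
Percent of the sites called in all 4 CatVII Rxra WT lists that each library kept in lists of equal length (y axis), inside the 200 neighbourhoods and elsewhere, for each comparison (x axis). Filled points are libraries inside the neighbourhoods and open points the same libraries elsewhere, and cultured Rxra cKO libraries kept a mean of 57.3% inside, against 62.6% in cultured Rxra WT libraries.

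Promoters, which the rule left out, were more often open at genes of the neighbourhoods. A peak lay within 1 kb of a start for 78.0 to 89.3% of the 214 member genes in CatVII Rxra cKO, against 51.9 to 66.7% of other genes in the same libraries, and for 81.8 to 93.0% in CatVII Rxra WT, against 52.8 to 68.0%. The ratio of member to other genes was 1.2 to 1.55 in all 30 libraries other than medium, where it was 0.885 to 1.10. Peaks in the neighbourhoods were also among the strongest 10% of a library more often than peaks elsewhere in 24 of 34 libraries. They averaged 16.8% under BEL-treated corpses (9.73 to 9.76% elsewhere) and 13.6% under untreated corpses (9.83 to 9.92% elsewhere). CatVII wild type went the other way, at 7.97% against 9.85 to 10.7% elsewhere, with only replicate 2 higher in the neighbourhoods (12%). Fewer of the peaks in the neighbourhoods lay in gene bodies than elsewhere in 32 of 34 libraries, with 33.3 to 47.2% inside genes.

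Motif letters within 100 bases of the summits separated the neighbourhoods from other distal peaks modestly. Peaks in repeated sequence were included in all motif values, and their part in these was not tested. KLF/SP letters were at 19.1% of member peaks, against 13.8% of others (medians over libraries), and higher in members in 33 of 34 libraries. SOX letters were at 34.3%, against 38.9%, and lower in all 34. The median GC content around the summits was also higher in members in every library. It was 48.5 to 53.2% in members and 46.3 to 49.3% elsewhere. The part of base composition in the KLF/SP and SOX values was not tested. AP-1 letters were at 27.5%, against 24.9%, and higher in 20 of 34, but the direction differed between groups. In vivo and in medium every library was higher in members. Under corpses no library was, with means of 37.2% in members and 42% elsewhere in both Rxra WT and Rxra cKO cells. The same held under BEL-treated corpses (37.1% in members and 41.3% elsewhere). Under AA+LPC+RA only 1 library, of Rxra WT cells, was higher in members.

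No motif passed an adjusted 0.05 among 72 tests, but in several the libraries did not overlap. Member peaks of cultures under corpses, against CatVII wild type, had AP-1 letters at 48.2 ± 4.64% and 30.1 ± 4.54%, RUNX at 20.8% and 13.9%, GATA at 5.64% and 11.5%, LIM homeodomain at 1.13% and 3.62% and KLF/SP at 14.6% and 20.2% (SD, n = 4 and 6; each exact permutation p = 0.00952, adjusted p = 0.137). Peaks elsewhere in the same lists moved likewise, with AP-1 at 59.8% in culture and 25.9% in CatVII, RUNX at 27.0% and 15.6% and KLF/SP at 10.3% and 17.1%, whereas GATA and LIM homeodomain libraries overlapped there. Cultured Rxra cKO member peaks had TEAD letters at 19.7 ± 0.12%, against 17.0 ± 0.69% in Rxra WT (exact permutation p = 0.0571), and BEL-treated member peaks had KLF/SP letters at 19.9 ± 0.09%, against 17.7 ± 0.89% under untreated corpses (exact permutation p = 0.0286, adjusted p = 0.257). Elsewhere TEAD letters were at 21% in Rxra cKO and 18.2% in Rxra WT, and KLF/SP letters at 13.6% under BEL-treated and 11.9% under untreated corpses, also without overlap, so neither is particular to the neighbourhoods. The direct repeat of AGGTCA with 5 bases between, a retinoid receptor motif, was at a median of 0% of member peaks and 0.00683% of others. Its letters were in only 0.00751% of the genome windows, too rare for these medians to show a difference. The shorter nuclear receptor motif, without a repeat, was at 11.7% of member peaks and 11.4% of others (medians), and higher in members in 15 of 34 libraries. The paper reports a repeat with a shorter spacing as its most enriched RXR-family motif in catagen-specific peaks, and that repeat was not searched here.

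Marker promoters bore on what the sorted cells were. Of 10 HFSC markers, all 10 had an open promoter in each CatVII Rxra cKO library, 9 or 10 in CatVII Rxra WT, 1 to 9 in CatVII wild type, 3 and 10 in AnaVI wild type, 7 to 9 in cultures under corpses and at most 2 in medium. The surface marker Cd34 had no promoter peak in any cultured library. Of 14 fibroblast markers 2 to 9 were open in CatVII Rxra cKO and 2 to 7 in CatVII Rxra WT, and of 12 immune markers 0 to 4 in CatVII Rxra cKO and 0 to 3 in CatVII Rxra WT. The leukocyte gene Ptprc had no promoter peak in any library, whereas Cd74, Ikzf1 and Runx3 had one in some libraries of both groups. The immune markers Csf1r and Adgre1 were open in CatVII Rxra cKO but in no CatVII Rxra WT library. So were the fibroblast markers Pdgfrb, Prrx1 and Dcn and the melanocyte markers Kit and Tyrp1. No marker of these lists was open in CatVII Rxra WT only, whereas Neurog2 and Nkx2-1, of unrelated tissues, were. Of 7 endothelial markers 1 to 4 were open in both groups. Of 8 melanocyte markers 3 to 5 were open in CatVII Rxra cKO and 3 in CatVII Rxra WT. Genes of unrelated tissues were open too, 1 to 3 of 10 in CatVII Rxra cKO and 1 to 5 in CatVII Rxra WT. An open promoter alone therefore did not identify a cell type. The part of other cell types in the neighbourhood counts was not tested.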

How the data were processed

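The deposited files are peak lists of 34 ATAC-seq libraries, each called by itself. Per the study's methods and processing notes, the authors used BWA 0.7.18 for alignment to mm39, SAMtools (1.17 and 1.9 are named) to drop duplicates, MACS3 3.0.0 to call peaks and deepTools 2.0.0 to make tracks, not used here. For each peak the authors' caller gave the fold enrichment at the summit, the -log10 p and -log10 q, and a display score, all of them deposited with the summit's offset. The lists hold no read counts, and their number of peaks limits precision, so equal lengths were compared. Libraries with shorter fragments may split peaks more finely and so change counts of peaks, which was not tested.

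Transcription starts came from GENCODE M39 on GRCm39 (mm39). Groups came from the labels. Ties at the last member would have gone to the window with the higher lowest count, and none occurred. Lists were ranked by -log10 p, and windows fitted with limma 3.58.1 (R 4.3.3, trend, pseudocount 0.5). Shares, motifs and sites kept were compared by exact permutation tests in SciPy 1.17.1. All were tested on simulated data. Samples that share a replicate number did not deviate together (correlations -0.0965 to 0.257), so no block was used. Named windows were the 15 densest, those holding a start of a listed gene, and the 5 largest called changes in each direction. The members, gene lists and motifs were chosen with earlier results of these data known. Columns of no sample numbered 0.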

Additional observations from a re-analysis of the deposited data

Results flagged for a closer look

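One result stood apart from its group. The share of member genes with an open promoter was 88.3% in replicate 4 of the Rxra WT cultures with BEL-treated corpses, and 86.9% in each of the other 3 libraries of that group. Its gap to the others was the whole range of the group, because the others were equal. Chance marks about 1 in 20 groups in this way, and 28 groups of values were examined. That library also had the most called peaks of the 4, 93372, and the part of depth in the value was not tested.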

How the results depend on the processing

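Differences in share are in percentage points. CatVII less AnaVI wild type was -0.009 and turned positive with starts of coding transcripts only (0.387), ranking by fold (0.424), all called peaks (0.603), equal numbers of all peaks (0.472), without the 2 windows of repeated sequence (0.623), without peaks in repeated sequence (1.95), and with windows chosen without CatVII Rxra WT list 1, 2 or 3 (0.19, 0.0574 and 0.0398). Rxra cKO corpses less medium turned negative when ranked by fold (-0.77), with all called peaks (-0.092) and without repeated sequence (-0.253). BEL-treated less untreated corpses turned negative with windows chosen without list 2 (-0.00419). CatVII Rxra cKO less Rxra WT moved to -1.96 for peaks beyond 5 kb, -0.828 with 100 windows and -0.572 ranked by fold, and the AA+LPC+RA difference to -0.918 ranked by fold and -0.614 without repeated sequence. The cause of these changes was not tested.

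Leaving out 1 library at a time gave -0.387 to 0.493 for CatVII less AnaVI wild type, -0.0291 to 0.0779 for BEL-treated less untreated corpses, -1.78 to -1.32 for CatVII Rxra cKO less Rxra WT, -0.414 to -0.377 for cultured Rxra cKO less Rxra WT and -0.221 to 0.423 under AA+LPC+RA. Rxra cKO corpses less medium ran from 1.35 without medium replicate 2 to 3.1 without medium replicate 1, and culture less CatVII wild type from -1.61 without CatVII replicate 1 to -0.726 without CatVII replicate 2. Sites kept in Rxra cKO corpses less medium ran from -0.81 to 1.27.

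Neighbourhoods called, 5 between CatVII and AnaVI wild type, became 10 with a mean of at least 1 peak, 16 without a filter, 2 in shorter lists and 0 with all called peaks, and 2 to 9 without 1 library. The 3 between cultured genotypes became 11 without a filter, 6 in shorter lists, 8 on a grid shifted by 50 kb, 6 without repeated sequence, 0 ranked by fold, 0 with all called peaks, and 0 to 3 without 1 library. The 3 for BEL became 5 without a filter, 6 in shorter lists, 1 without repeated sequence, 0 ranked by fold, 0 with all called peaks, and 2 to 9 without 1 library. The 10 between culture and CatVII wild type became 25 with a mean of at least 1 peak, 48 without a filter, 5 ranked by fold, 1 in shorter lists, 5 without repeated sequence and 7 to 22 without 1 library. With all called peaks 187 were called there, all higher, where culture libraries held more peaks. In that setting these log2 differences turned positive: Mbnl2 1.13, Lrrc74a 1.45, Mreg 1.82, near Chd2 1.17, near Myc 1.49, Dlgap1 1.81 and Adgrg7 1.25, as did Ttc7 between cultured genotypes, at 0.23.

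With the replicate block the calls numbered 0 between CatVII and AnaVI wild type, 0 between cultured genotypes, 0 for BEL and 6 between culture and CatVII wild type. The share of cultured Rxra cKO less Rxra WT was -0.391 with the block. The numbers are only names here, since same-numbered libraries did not deviate together.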
